A study of Homo sapiens with 20 samples.

Results

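The creatine system was described by 6 genes in HEK293T cells: GATM and GAMT, which make creatine, SLC6A8, which carries it into the cell, and the creatine kinases CKB, CKMT1A and CKMT1B. They are 6 of the 45372 gene symbols that the deposited tables held, chosen by name for their role, and all 6 had a row in both tables. HEK293T, the only line used, derives from human embryonic kidney and expresses the large T antigen of the virus SV40. The study asked which transcripts respond when HUWE1, a large HECT-type ubiquitin ligase, is depleted with small interfering RNA (siRNA). There were 5 groups of 4 libraries, which the labels call biological replicates: cells given HUWE1 siRNA and cells given non-targeting siRNA in set 1, and cells given HUWE1 siRNA of set 2, cells given HUWE1 siRNA of set 3 and cells given non-targeting siRNA that served sets 2 and 3 together. The sources used here do not say what separates the sets, nor give siRNA sequences, dose or time after transfection. Polyadenylated RNA was sequenced from a stranded library, and the values are TPM (relative transcript abundance, scaled for transcript length and library total).

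Creatine is built in a pair of steps. GATM joins the amidino group of arginine to glycine, giving guanidinoacetate and ornithine, and GAMT then methylates guanidinoacetate with S-adenosylmethionine. In the body the first step is known from kidney and the second from liver, and other tissues take creatine up from blood through SLC6A8, a sodium- and chloride-dependent carrier. Creatine kinases move a phosphate between ATP and creatine: CKB works in the cytosol of brain and many other tissues, while CKMT1, the ubiquitous mitochondrial kinase, sits in the intermembrane space and charges creatine where ATP leaves the mitochondrion. In the human genome CKMT1 exists as a pair of near-identical genes, CKMT1A and CKMT1B.

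CKMT1B spans chr15:43593054-43604901 and CKMT1A chr15:43692886-43699222, both on the plus strand of GRCh38 in GENCODE release 29. The 1779-base transcripts of the pair differ at 4 positions, an identity of 99.8%. With positions counted from the transcript's 5′ end and the CKMT1A base first, G1448A and C1478T lie in the coding sequence and A1679C and T1733C in the 3′ UTR. Of the 1680 stretches of 100 bases in this CKMT1A transcript, 1449 (86.25%) also occur in a CKMT1B transcript, so a read from most of the transcript cannot be placed in one copy. The sources used here do not say whether such reads were kept or how they were divided between the copies. The sum of CKMT1A and CKMT1B is therefore reported beside each. The levels of the copies and of their sum against other genes are limited by this. The coding stretches of 41 bases around the differences in the coding sequence are shown because they hold the only coding letters that tell these transcripts apart, with the differing base in capitals.
CKMT1A, position 1448: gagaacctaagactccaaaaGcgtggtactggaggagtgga
CKMT1B, position 1448: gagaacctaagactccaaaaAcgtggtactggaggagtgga
CKMT1A, position 1478: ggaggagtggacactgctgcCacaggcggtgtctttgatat
CKMT1B, position 1478: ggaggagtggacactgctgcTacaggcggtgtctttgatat

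The promoter windows of the kinases, from 250 bases before to 50 bases after an annotated start, are shown because both CKMT1 copies were lower with HUWE1 siRNA in set 1 and CKB was not called. They come from RefSeq on GRCh38.p14, which had windows for 5 of the 6 genes. Of the 5 CKMT1A and 2 CKMT1B windows, the pair with the longest shared run is printed. The CKMT1A window lies at chr15:43693441-43693740 on the plus strand, the CKMT1B window at chr15:43593584-43593883 on the plus strand and the CKB window at chr14:103522781-103523080 on the minus strand. Capitals mark CACGTG (an E-box) in the CKMT1 windows and CCAAT and TATAAA in the CKB window.
CKMT1A: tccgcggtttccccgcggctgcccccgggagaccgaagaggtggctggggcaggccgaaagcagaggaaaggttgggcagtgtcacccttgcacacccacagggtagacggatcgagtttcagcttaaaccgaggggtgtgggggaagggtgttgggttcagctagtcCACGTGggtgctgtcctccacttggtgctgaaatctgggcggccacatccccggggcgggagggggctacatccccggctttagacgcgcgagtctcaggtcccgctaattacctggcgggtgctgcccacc
CKMT1B: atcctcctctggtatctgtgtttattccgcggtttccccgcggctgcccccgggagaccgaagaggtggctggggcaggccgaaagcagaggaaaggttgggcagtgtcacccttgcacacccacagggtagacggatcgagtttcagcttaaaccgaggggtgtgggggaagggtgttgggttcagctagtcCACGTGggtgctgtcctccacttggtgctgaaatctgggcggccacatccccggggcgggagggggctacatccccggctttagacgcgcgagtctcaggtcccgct
CKB: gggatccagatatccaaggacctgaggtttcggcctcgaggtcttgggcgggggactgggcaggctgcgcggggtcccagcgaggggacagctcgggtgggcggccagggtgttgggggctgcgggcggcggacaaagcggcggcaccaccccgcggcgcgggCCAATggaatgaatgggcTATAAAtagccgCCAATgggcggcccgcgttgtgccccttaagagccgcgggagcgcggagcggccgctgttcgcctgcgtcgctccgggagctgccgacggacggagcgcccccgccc
The CKMT1A and CKMT1B windows share an unbroken run of 275 of their 300 bases, which begins at base 1 of the CKMT1A window and base 26 of the CKMT1B window. On both strands of the 34943 RefSeq windows of this length, CACGTG occurred in 7.23%, CCAAT in 34.6% and TATAAA in 11.6%. CACGTG begins at base 169 of the CKMT1A window and base 194 of the CKMT1B window, within the shared run. Of the CKMT1A windows not printed, the one starting at base 43693609 of the chromosome overlapped the printed window. It held the same CACGTG, at its base 1, and not a further one. Those starting at 43692536, 43693183 and 43693690 held no CACGTG, and neither did the other CKMT1B window, starting at 43592607. In the CKB window CCAAT begins at bases 164 and 194 and TATAAA at base 182, and CACGTG is not among its letters. CCAAT was in neither printed CKMT1 window, but the CKMT1A windows starting at 43693609 and 43693690 held it. GGGCGG (a GC box), held by 44.9% of all windows, and TGATGNAAT (an ATF4 element), held by 0.996%, were searched too. GGGCGG was in every printed window, of CKMT1A, CKMT1B and CKB alike, and TGATGNAAT was in no window of a member. The capitalised motifs do not overlap each other in these windows, and a match of letters is not a binding site.

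HUWE1 itself was lower in every HUWE1 siRNA library. It averaged 85.0 ± 1.72 TPM in HUWE1 siRNA cells of set 1 and 157.2 ± 3.57 TPM in non-targeting cells of set 1. In the second table it averaged 94.6 ± 2.26 TPM in HUWE1 siRNA cells of set 2, 84.8 ± 5.42 TPM in those of set 3 and 163.3 ± 3.49 TPM in their shared non-targeting cells (SD, n = 4 in each group). HUWE1 siRNA cells thus held 54.1%, 57.9% and 51.9% of the control level in sets 1, 2 and 3, with log2 fold changes of TPM + 1 of -0.88, -0.78 and -0.94 and limma adjusted p of 1.69e-07, 7.45e-06 and 8.17e-07. Within groups, the lowest Pearson r of log2(TPM + 1) between libraries, across genes, was 0.993 in the non-targeting cells of sets 2 and 3 and 0.997 in the other groups. All 8 markers of the HEK293 background reached 1 TPM, among them the intermediate filament genes VIM and NEFM, while HBB (a haemoglobin chain of red cells) and SLC22A6 (a proximal tubule transporter) were listed at 0 in all 20 libraries. The 8 background markers summed to 907 to 945 TPM in HUWE1 siRNA cells and 1021 to 1081 TPM in non-targeting cells of set 1, and 6 fibroblast markers to 19.9 to 21.6 TPM in HUWE1 siRNA cells and 16.97 to 18.8 TPM in non-targeting cells. These sums moved with the set 1 groups, and their part in the results below was not tested. The largest gene in them was VIM, at a mean of 512.8 TPM over the first table, and COL1A1, at 10.8 TPM. Sums of the muscle, neuron and glia, hepatocyte, proximal tubule and blood cell markers overlapped between the set 1 groups.

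The members lay on very different levels, and CKB was the highest of the 6 in all 5 groups while GATM was the lowest. TPM is scaled per length, so levels of different genes can be set side by side, with the limit of shared reads for the CKMT1 copies. In set 1, GAMT and SLC6A8 followed CKB, then CKMT1B and CKMT1A. The ranges of GAMT and SLC6A8 overlapped in HUWE1 siRNA cells, and those of SLC6A8 and CKMT1B overlapped in non-targeting cells. In all 3 groups of the second table the order was CKB, GAMT, CKMT1B, CKMT1A, SLC6A8 and GATM, and no neighbours in it overlapped. Muscle creatine kinase CKM, which is no member, averaged 3.10 ± 0.418 TPM in HUWE1 siRNA cells and 2.86 ± 0.591 TPM in non-targeting cells of set 1 (SD, n = 4 each).

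**Figure D1:**
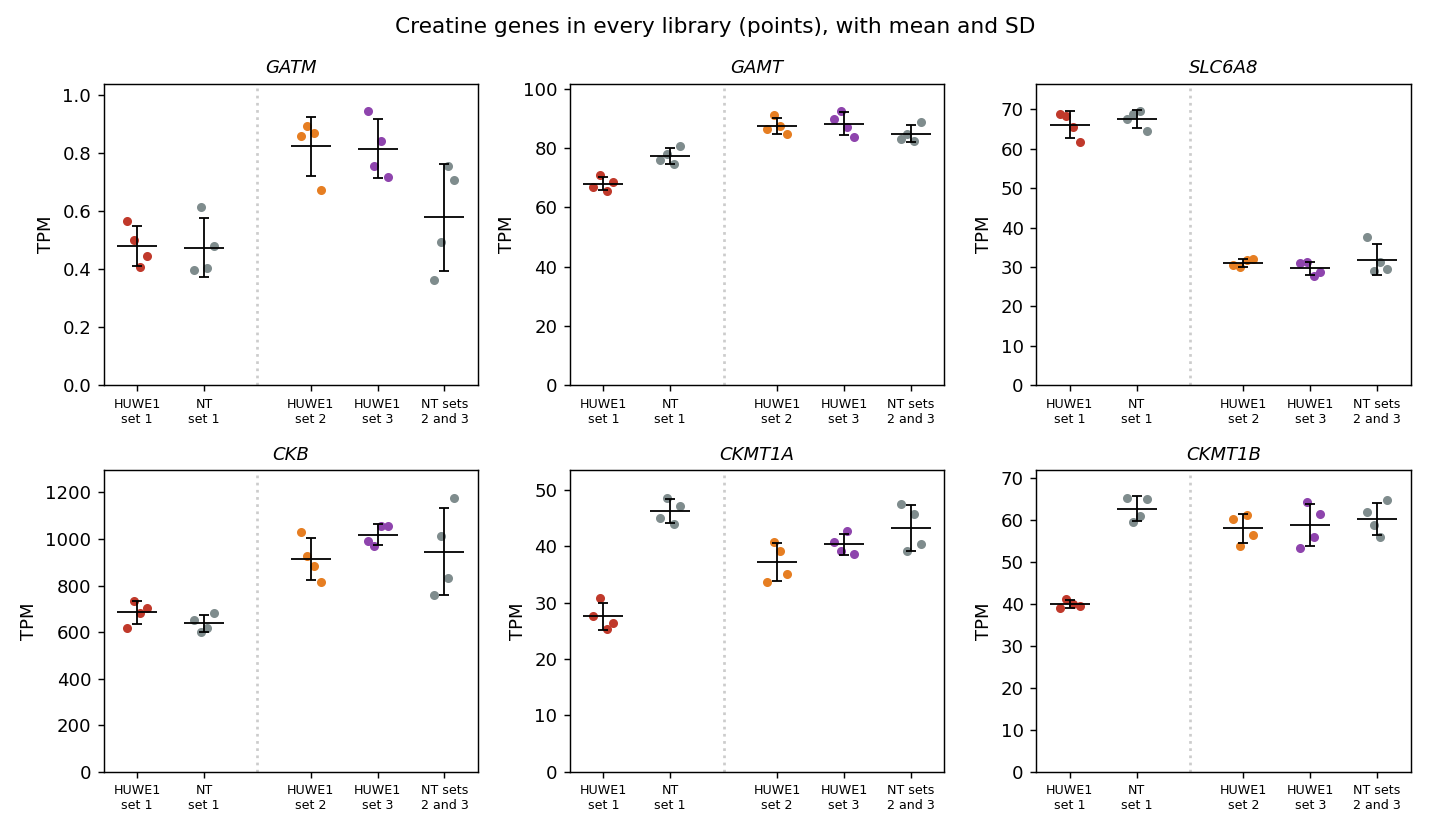
TPM of the 6 creatine genes in each of 20 libraries (points), with the mean and SD of each group of 4; every vertical axis starts at 0 and has its own scale, NT stands for non-targeting siRNA, and the dotted line parts the tables, which were normalized separately. CKMT1A and CKMT1B have no overlap between the set 1 groups, while CKB and SLC6A8 do.

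In set 1, both CKMT1 copies and GAMT were lower in HUWE1 siRNA cells than in non-targeting cells, and CKB, SLC6A8 and GATM had overlapping values. Together the CKMT1 copies stood at 61.9% of the control level and GAMT at 88.1%. The values of sets 1, 2 and 3 were known when the genes were chosen. The calls and counts below thus describe the genes and are no independent evidence, and no p is given for them. A gene was called when limma's adjusted p across all tested genes was under 0.05. Of the 5 members tested, 3 were called lower and 0 higher in set 1, where 17.9% of all 16057 tested genes were called lower, 12.3% higher and 30.3% in either direction. The median log2 fold change of TPM + 1 was -0.18 over the 5 members and -0.01 over all tested genes. Values of the 4 HUWE1 siRNA and 4 non-targeting libraries did not overlap for these 3 members in set 1 and for 0 members in sets 2 and 3, where 31.7% (18.4% lower), 3.69% and 17.2% of all tested genes had no overlap in sets 1, 2 and 3. In sets 2 and 3 limma called 0 of the 5 members, with 0.0126% of 15860 genes called in set 2 and 11.6% in set 3. At an unadjusted p under 0.05, 1 member passed in set 2 and 0 in set 3, beside 1401 and 5470 of all 15860 tested genes. The median log2 fold change of TPM + 1 over the members was -0.03 in set 2 and -0.04 in set 3, beside medians of -0.0041 and 0.0074 over all tested genes. Sets 2 and 3 share their non-targeting libraries, so their fold changes are not independent, and set 1 was not tested against them because the tables were normalized separately.

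**Figure D2:**
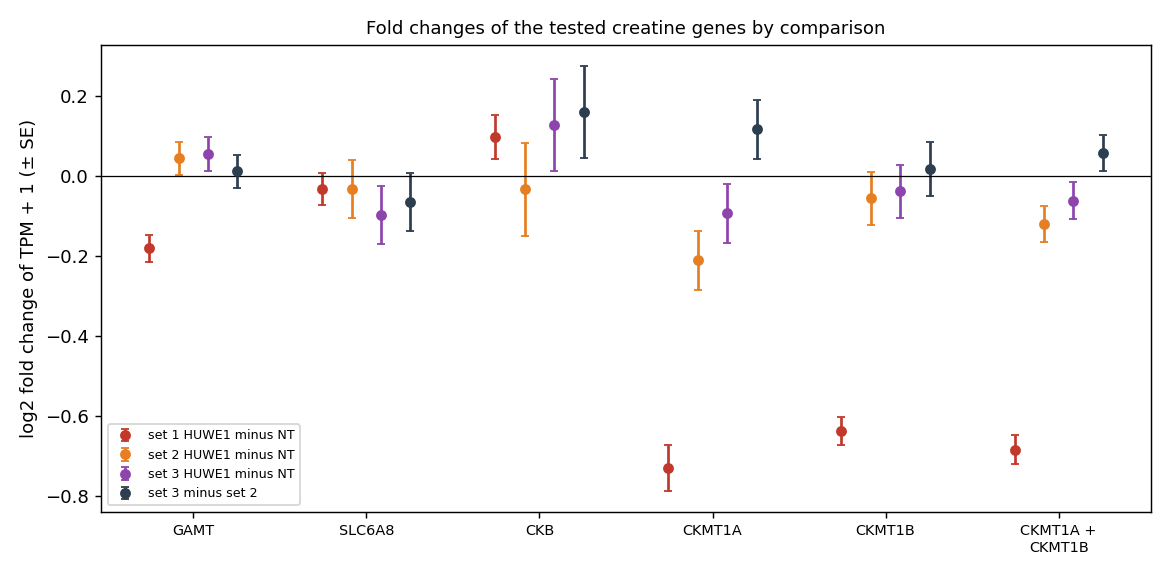
Log2 fold change of TPM + 1 (points) with its standard error (bars) for the 5 tested members and the summed CKMT1 copies; HUWE1 siRNA minus non-targeting in sets 1, 2 and 3, and HUWE1 siRNA of set 3 minus HUWE1 siRNA of set 2. CKMT1A at -0.73 and CKMT1B at -0.64 in set 1 lie apart from the other points.

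Creatine synthesis begins with GATM, the arginine:glycine amidinotransferase, which was near the floor of these data. It stayed under 1 TPM in all 20 libraries, so it did not pass the filter of 1 TPM and was not among the 5 tested members. Without the filter its log2 fold changes of TPM + 1 were 0.01, 0.21 and 0.21 in sets 1, 2 and 3. With TPM recomputed without mitochondrially encoded genes it passed the filter in the second table, at 0.23 in set 2 and 0.22 in set 3, and was not called. GATM was at 0.567, 0.500, 0.409 and 0.447 TPM in HUWE1 siRNA cells of set 1, against 0.398, 0.615, 0.404 and 0.481 TPM in non-targeting cells. All HUWE1 siRNA values of set 1 fell within the control range. In the second table it was at 0.861, 0.894, 0.871 and 0.674 TPM in HUWE1 siRNA cells of set 2 and at 0.946, 0.757, 0.844 and 0.718 TPM in those of set 3, against 0.362, 0.493, 0.755 and 0.707 TPM in their non-targeting cells. In each of sets 2 and 3, 3 of 4 libraries lay above all controls and 1 overlapped them. At this level, with the sequencing depth unknown, no interval can be put on a single value. In bulk RNA such as this, fewer cells of a type and less RNA per cell cannot be told apart.

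GAMT, the methyltransferase of the second step, was well above GATM in every group. It was at 67.0, 70.9, 65.6 and 68.8 TPM in HUWE1 siRNA cells of set 1, against 75.9, 78.0, 74.6 and 80.8 TPM in non-targeting cells. The highest HUWE1 siRNA library lay under the lowest control, and the log2 fold change of TPM + 1 was -0.18 ± 0.033 (SE). GAMT in the second table was at 86.3, 91.3, 87.7 and 84.9 TPM in HUWE1 siRNA cells of set 2 and at 90.0, 92.6, 87.0 and 83.7 TPM in those of set 3, against 83.2, 84.9, 82.6 and 88.8 TPM in non-targeting cells. Here the groups overlapped, and the log2 fold changes of TPM + 1 were 0.04 ± 0.042 in set 2 and 0.06 ± 0.042 in set 3 (SE).

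Uptake of creatine depends on SLC6A8, a member of the SLC6 carrier family on the X chromosome (chrX:153688099-153696593, plus strand). SLC6A8 was at 69.0, 68.4, 65.7 and 61.6 TPM in HUWE1 siRNA cells of set 1, against 67.5, 68.8, 69.6 and 64.5 TPM in non-targeting cells. It was at 30.5, 29.9, 31.7 and 31.9 TPM in HUWE1 siRNA cells of set 2 and at 30.9, 31.2, 27.8 and 28.6 TPM in those of set 3, against 37.6, 29.1, 31.3 and 29.5 TPM in non-targeting cells. Non-targeting replicate 1 was the highest SLC6A8 library of the second table, and the groups overlapped in every set. The log2 fold changes of TPM + 1 were -0.03 ± 0.040, -0.03 ± 0.072 and -0.10 ± 0.072 (SE) in sets 1, 2 and 3. The group means of SLC6A8 were 66.2 and 67.6 TPM in the first table and 29.6 to 31.9 TPM in the second. That gap lies between the tables and was not tested, as was the share of TPM from mitochondrially encoded genes, whose group means were 25.6% and 25.2% in the first table and 15.9% to 17.7% in the second.

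CKB, the cytosolic kinase on chromosome 14 (chr14:103519659-103523111, minus strand), supplied most creatine kinase transcript. CKB was at 617.2, 733.4, 682.3 and 704.7 TPM in HUWE1 siRNA cells of set 1, against 651.7, 599.3, 619.5 and 683.5 TPM in non-targeting cells. HUWE1 siRNA replicates 2 and 4 lay above all controls and the other libraries overlapped them. The log2 fold change of TPM + 1 was 0.10 ± 0.055 (SE), and CKB was not called. It passed the threshold under 1 of the alternatives, without HUWE1 siRNA replicate 1, at a log2 fold change of TPM + 1 of 0.15. Levels of CKB in the second table were 1030.4, 925.9, 882.2 and 816.8 TPM in HUWE1 siRNA cells of set 2 and 990.8, 970.7, 1055.7 and 1057.1 TPM in those of set 3, against 761.4, 1011.7, 831.1 and 1177.1 TPM in non-targeting cells. The non-targeting libraries spanned the values of both HUWE1 siRNA groups, with replicates 1 and 3 low and replicates 2 and 4 high. Their SD was 187.1 TPM, against 89.7 TPM in set 2 and 44.4 TPM in set 3. The log2 fold changes of TPM + 1 were -0.03 ± 0.115 in set 2 and 0.13 ± 0.115 in set 3 (SE).

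CKMT1A had the largest fold change of the 5 tested members in set 1. It was at 27.6, 30.9, 25.4 and 26.4 TPM in HUWE1 siRNA cells of set 1, against 45.1, 48.6, 44.0 and 47.2 TPM in non-targeting cells. No values overlapped, the HUWE1 siRNA mean was 59.6% of the control mean, and the log2 fold change of TPM + 1 was -0.73 ± 0.057 (SE). In the second table CKMT1A was at 33.6, 40.8, 39.2 and 35.0 TPM in HUWE1 siRNA cells of set 2 and at 40.8, 39.2, 42.7 and 38.7 TPM in those of set 3, against 47.5, 39.1, 45.7 and 40.5 TPM in non-targeting cells. In set 2, replicates 1 and 4 lay below all controls, and in set 3 replicate 4 did. The log2 fold changes of TPM + 1 were -0.21 ± 0.074 in set 2 and -0.09 ± 0.074 in set 3 (SE), and CKMT1A was called in neither.

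CKMT1B was at 38.9, 41.1, 39.9 and 39.5 TPM in HUWE1 siRNA cells of set 1, against 65.2, 59.3, 60.8 and 64.95 TPM in non-targeting cells. As with CKMT1A, no values overlapped, and the HUWE1 siRNA mean was 63.7% of the control mean, a log2 fold change of TPM + 1 of -0.64 ± 0.036 (SE). CKMT1B in the second table was at 60.2, 53.8, 61.2 and 56.4 TPM in HUWE1 siRNA cells of set 2 and at 53.3, 64.3, 55.8 and 61.4 TPM in those of set 3, against 61.8, 58.6, 55.9 and 64.6 TPM in non-targeting cells. All 3 groups overlapped, and the log2 fold changes of TPM + 1 were -0.06 ± 0.067 in set 2 and -0.04 ± 0.067 in set 3 (SE).

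If shared reads were kept and each counted once, the sum of both copies depends little on how they were divided, as the compared transcripts are equally long. Whether they were kept is not stated in the sources used here. The sum was 66.5, 72.0, 65.3 and 65.8 TPM in HUWE1 siRNA cells of set 1, against 110.3, 107.9, 104.8 and 112.2 TPM in non-targeting cells. Its log2 fold change of TPM + 1 was -0.68 ± 0.036 (SE). In the second table the sum was 93.8, 94.6, 100.4 and 91.5 TPM in HUWE1 siRNA cells of set 2 and 94.1, 103.5, 98.5 and 100.1 TPM in those of set 3, against 109.2, 97.7, 101.6 and 105.1 TPM in non-targeting cells. In set 2, 3 of 4 libraries lay below all controls and replicate 3 did not, and in set 3 only replicate 1 lay below them. The mean was 92.0% of the control mean in set 2 and 95.8% in set 3, with log2 fold changes of TPM + 1 of -0.12 ± 0.046 and -0.06 ± 0.046 (SE). CKMT1A made up 38.9% to 42.9% of the sum in HUWE1 siRNA cells and 40.9% to 45.03% in non-targeting cells of set 1, so the share given to each copy overlapped between the groups.

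**Figure D3:**
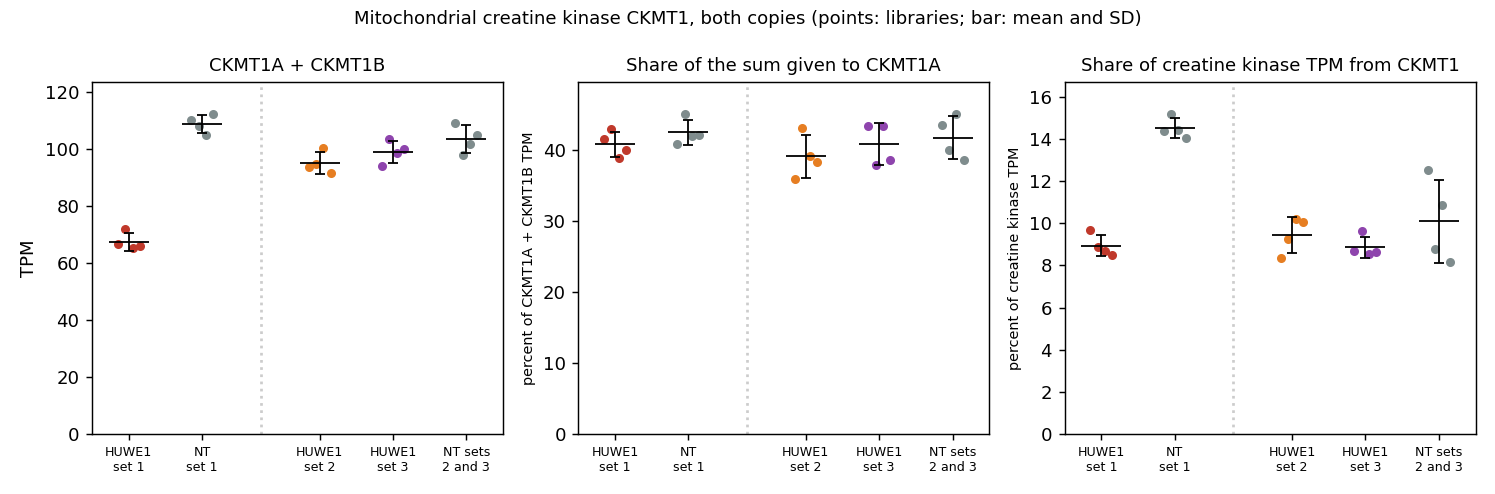
Summed TPM of CKMT1A and CKMT1B, the percent of that sum given to CKMT1A, and the percent of creatine kinase TPM that comes from CKMT1, in each library (points) with the mean and SD of each group of 4; the axes start at 0. The sum and the kinase share are lower in all 4 HUWE1 siRNA libraries of set 1 than in its controls, while the copies keep overlapping shares.

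The balance between mitochondrial and cytosolic kinase transcript followed from these values, and its level depends on whether reads shared by the CKMT1 copies were kept. CKMT1A and CKMT1B gave 8.94 ± 0.515% of the summed creatine kinase TPM in HUWE1 siRNA cells of set 1 and 14.5 ± 0.480% in non-targeting cells (SD, n = 4 each). CKB TPM was 10.2 ± 0.621 times the CKMT1 sum in HUWE1 siRNA cells and 5.87 ± 0.226 times in non-targeting cells. The summed creatine kinase TPM was 755.3 ± 51.5 in HUWE1 siRNA cells and 750.5 ± 39.7 in non-targeting cells of set 1, a difference smaller than either SD. In the second table the CKMT1 share was 9.46 ± 0.856% in HUWE1 siRNA cells of set 2, 8.86 ± 0.508% in those of set 3 and 10.1 ± 1.99% in non-targeting cells, whose range of 8.18% to 12.5% held all values of both HUWE1 siRNA groups. The share of TPM from mitochondrially encoded genes was 25.6 ± 0.484% in HUWE1 siRNA cells and 25.2 ± 0.692% in non-targeting cells of set 1 (SD, n = 4 each), with overlapping ranges. Any relation of this share to the CKMT1 difference was not tested.

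HUWE1 siRNA of set 3 was also set against HUWE1 siRNA of set 2, a contrast that the choice of genes did not use directly. Each set's fold changes were known, and with shared controls this contrast is their difference. The p values of the members here thus describe the genes and are no independent evidence. None of the 5 tested members differed by limma's test across all genes, where 0.517% of 15860 genes were called. At an unadjusted p under 0.05, 0 members passed, beside 2507 of the 15860 genes. The 4 and 4 values overlapped for all members, while 13.2% of all tested genes had no overlap. The log2 fold change of TPM + 1 was 0.12 ± 0.074 for CKMT1A (SE, limma adjusted p = 0.451) and 0.02 ± 0.067 for CKMT1B (SE, limma adjusted p = 0.906). For CKB it was 0.16 ± 0.115 (SE, limma adjusted p = 0.504), the largest of the members. GAMT stood at 0.01 ± 0.042 (SE, limma adjusted p = 0.900) and SLC6A8 at -0.06 ± 0.072 (SE, limma adjusted p = 0.672). The CKMT1 sum was 99.0 ± 3.89 TPM in set 3 and 95.1 ± 3.79 TPM in set 2 (SD, n = 4 each), a difference of 3.97 TPM with a two-sided exact permutation p of 0.257, where 4 against 4 libraries can reach 0.0286. A p over the threshold does not show that the sets act alike. HUWE1 itself was at 84.8 TPM in set 3 and 94.6 TPM in set 2, a log2 fold change of TPM + 1 of -0.16 ± 0.045 (SE, limma adjusted p = 0.134).

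Around the creatine genes, 85 genes of 8 lists were followed: other creatine genes, the metabolism of arginine, of glycine and of S-adenosylmethionine, the SLC6 carriers, other kinases of adenine and guanine nucleotides, the porins and carriers that pass adenine nucleotides through the mitochondrial membranes, and AMP-activated protein kinase. In set 1, 64 of them were tested and limma called 11 higher and 11 lower in HUWE1 siRNA cells, beside 12.3% and 17.9% of all tested genes (30.3% in either direction), which is the background for each list's set 1 counts below. In set 3, 65 were tested with 6 called higher and 4 lower, where 7.45% of all genes were called higher and 4.15% lower. In set 2 and in set 3 against set 2, 0 of 65 were called. Of the 22 genes called in set 1, 14 stayed called under all alternatives. Of the 10 called in set 3, 0 did, and 7 lost the call when only the 2 groups were fitted, so the set 3 calls below are to be read with that limit.

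**Figure D4:**
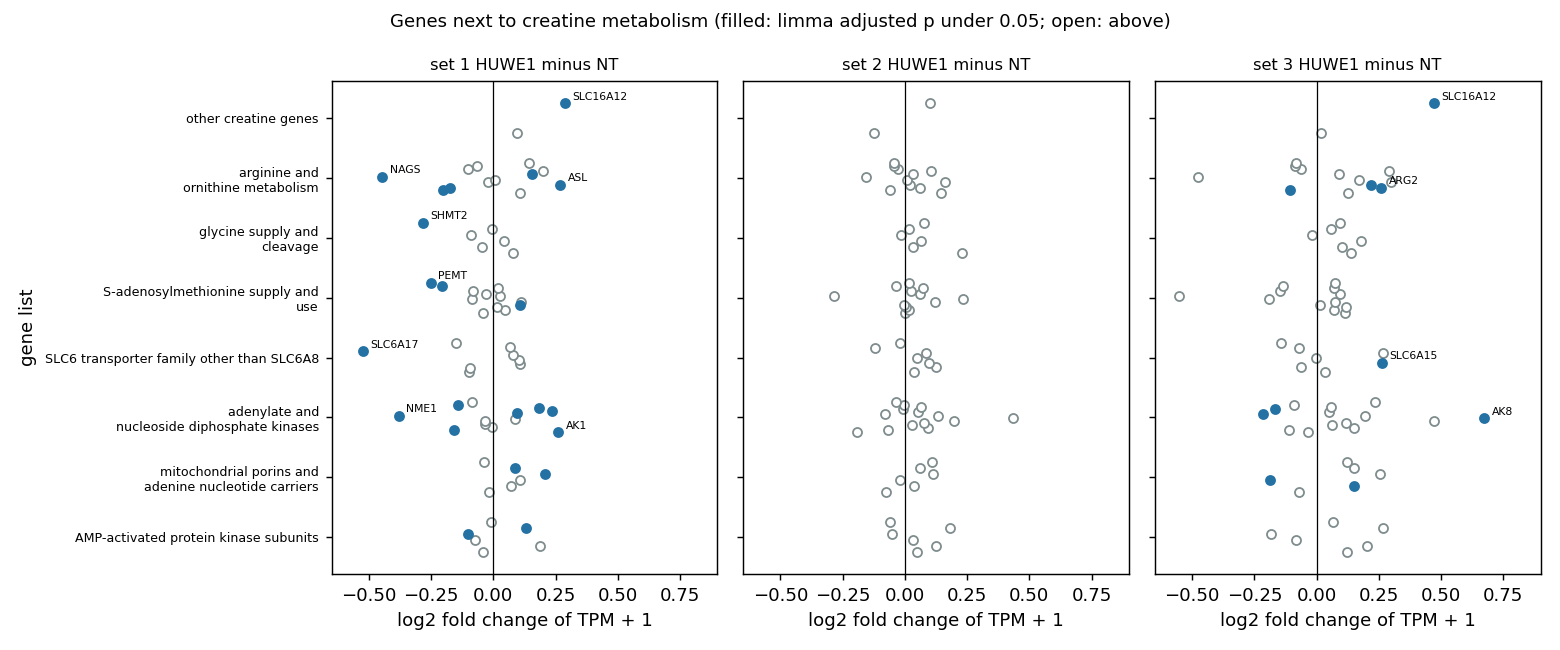
Log2 fold change of TPM + 1, HUWE1 siRNA minus non-targeting, of each tested gene (circle) of 8 lists in sets 1, 2 and 3; filled circles have a limma adjusted p under 0.05 and the larger of them are named. Set 1 shows 22 filled circles on both sides of 0, set 2 shows 0 and set 3 shows 10.

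Substrates of creatine synthesis were in the first lists. Among 12 tested genes of arginine and ornithine metabolism, 2 rose and 3 fell in set 1. ASL, which releases arginine from argininosuccinate, rose to 24.6 ± 1.38 TPM in HUWE1 siRNA cells, against 20.2 ± 0.794 TPM in non-targeting cells (SD, n = 4 each; log2 fold change of TPM + 1 of 0.27, limma adjusted p = 0.0022). ASL also rose in set 3, at 18.4 ± 0.710 TPM in HUWE1 siRNA cells and 15.6 ± 0.474 TPM in non-targeting cells (limma adjusted p = 0.0158). OAT, which turns ornithine over in the mitochondrion, rose in set 1 at a log2 fold change of TPM + 1 of 0.16 (limma adjusted p = 0.0093). ALDH18A1, the first enzyme of proline and ornithine synthesis from glutamate, fell in set 1 by 0.20 on the log2 scale of TPM + 1 (limma adjusted p = 4.9e-04). ARG2, the mitochondrial arginase that competes for arginine, was called in opposite directions, at a log2 fold change of TPM + 1 of -0.17 in set 1 (limma adjusted p = 0.0104) and 0.26 in set 3 (limma adjusted p = 0.0470). Of 6 tested glycine genes SHMT2, the mitochondrial enzyme that makes glycine from serine, fell in set 1, to 205.5 ± 8.18 TPM in HUWE1 siRNA cells, against 249.99 ± 7.75 TPM in non-targeting cells (SD, n = 4 each; limma adjusted p = 3.6e-04).

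The methyl donor and the carriers came next. Of 12 tested S-adenosylmethionine genes, 1 rose and 2 fell in set 1. PEMT, a methyltransferase that makes phosphatidylcholine and uses S-adenosylmethionine as GAMT does, fell by 0.25 on the log2 scale of TPM + 1 (limma adjusted p = 0.0055), and MTRR, which reactivates methionine synthase, fell by 0.21 (limma adjusted p = 0.0044). MAT2A, which makes S-adenosylmethionine, was the most abundant of that list at 544.0 ± 10.2 TPM in HUWE1 siRNA cells and 555.8 ± 13.6 TPM in non-targeting cells of set 1, and was not called. SLC16A12, a carrier known to move creatine out of cells, was called higher in sets 1 and 3. It reached 2.56 ± 0.203 TPM in HUWE1 siRNA cells and 1.93 ± 0.264 TPM in non-targeting cells of set 1 (SD, n = 4 each; limma adjusted p = 0.0275), and 2.44 ± 0.203 TPM in HUWE1 siRNA cells of set 3 and 1.49 ± 0.247 TPM in their controls (limma adjusted p = 0.0158). It lay far below SLC6A8, and its set 1 call held under 9 of 14 alternatives. Among the SLC6 relatives of SLC6A8, 8 were tested in set 1 and 1 fell: SLC6A17, a neuronal amino acid carrier, by 0.52 on the log2 scale of TPM + 1 (limma adjusted p = 0.0015).

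Other phosphate-transfer enzymes were called in both directions in set 1. Of 12 adenylate and nucleoside diphosphate kinases tested in set 1, 4 rose and 3 fell, where 30.3% of all tested genes were called. NME1, a nucleoside diphosphate kinase, fell to 163.3 ± 2.46 TPM in HUWE1 siRNA cells, against 212.7 ± 5.098 TPM in non-targeting cells of set 1 (SD, n = 4 each; log2 fold change of TPM + 1 of -0.38, limma adjusted p = 1.35e-05). NME4, a mitochondrial nucleoside diphosphate kinase, rose by 0.18 on the log2 scale of TPM + 1 (limma adjusted p = 0.0057). Of 6 tested porins and adenine nucleotide carriers, 2 rose and 0 fell in set 1, beside the same 30.3% of all tested genes. VDAC1, the outer membrane porin that CKMT1 is known to bind, rose to 215.3 ± 5.61 TPM in HUWE1 siRNA cells, against 186.3 ± 9.65 TPM in non-targeting cells (SD, n = 4 each; limma adjusted p = 0.0028). VDAC2 rose by 0.09 on the log2 scale of TPM + 1 (limma adjusted p = 0.0317), a call that held under 10 of 15 alternatives. VDAC3, SLC25A4, SLC25A5 and SLC25A6 were not called in set 1, at -0.04, -0.02, 0.07 and 0.11 on that scale. Of the 6 tested subunits of AMP-activated protein kinase, an energy sensor, PRKAG1 rose by 0.13 and PRKAB2 fell by 0.10 on that scale in set 1.

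Calls in set 3 touched 5 of the 8 lists, and the glycine, S-adenosylmethionine and AMP-activated protein kinase lists had 0. NME1 fell in set 3 as well, to 172.7 ± 4.48 TPM in HUWE1 siRNA cells, against 200.8 ± 8.27 TPM in non-targeting cells (SD, n = 4 each; limma adjusted p = 0.0244). Of the adenine nucleotide carriers that bring ATP out of the matrix, SLC25A6 fell to 1093.2 ± 31.7 TPM in HUWE1 siRNA cells of set 3, against 1246.1 ± 39.4 TPM in non-targeting cells (limma adjusted p = 0.0210). SLC25A5 of the same family rose, to 940.03 ± 13.1 TPM in HUWE1 siRNA cells, against 848.0 ± 52.0 TPM in non-targeting cells (limma adjusted p = 0.0466), a call that held under 4 of 21 alternatives. SLC6A15, a neutral amino acid carrier related to SLC6A8, rose by 0.26 on the log2 scale of TPM + 1 (limma adjusted p = 0.0284).

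The genomic neighbours of the members were read next, because CKMT1A and CKMT1B lie in the same stretch of chromosome 15. Of 24 neighbours, 22 were tested, with 4 called higher and 7 lower in set 1, 0 in set 2, 3 higher and 2 lower in set 3 and 0 in set 3 against set 2. Over all tested genes, 30.3% were called in set 1 (12.3% higher, 17.9% lower), 0.0126% in set 2, 11.6% in set 3 and 0.517% in set 3 against set 2. PPIP5K1, an inositol phosphate kinase 2801 bases from CKMT1B, had a log2 fold change of TPM + 1 of 0.10 in set 1 (limma adjusted p = 0.0266). STRC, which encodes stereocilin of the inner ear, overlaps CKMT1B on the other strand and was low, at 2.42 ± 0.197 TPM in HUWE1 siRNA cells and 2.99 ± 0.132 TPM in non-targeting cells of set 1 (limma adjusted p = 0.0304), and the sources used here do not say whether counting used strand. CATSPER2, a sperm cation channel gene between the CKMT1 copies, was higher in set 1 with a log2 fold change of TPM + 1 of 0.17 (limma adjusted p = 0.0334). MAP1A, a microtubule-associated protein gene 61434 bases from CKMT1B, fell by 0.42 on the log2 scale of TPM + 1 in set 1 (limma adjusted p = 1.67e-04). These called neighbours of the CKMT1 copies had fold changes of both signs in set 1, and a change shared along the stretch was not tested. The calls of PPIP5K1, STRC and CATSPER2 held under 10 of 15, 6 of 14 and 7 of 15 alternatives, and that of MAP1A under 15 of 15. Next to CKB, TRMT61A, a tRNA methyltransferase subunit 6073 bases away, fell in set 1 to 51.3 ± 2.09 TPM in HUWE1 siRNA cells, against 73.7 ± 0.919 TPM in non-targeting cells (SD, n = 4 each; limma adjusted p = 1.09e-05), while CKB was not called. The other CKB neighbours EIF5, MARK3 and BAG5 were also called lower in set 1, by 0.14, 0.11 and 0.21 on the log2 scale of TPM + 1. Their limma adjusted p was 0.0102, 0.0200 and 0.0066, and these calls held under 14, 11 and 15 of 15 alternatives.

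**Figure D5:**
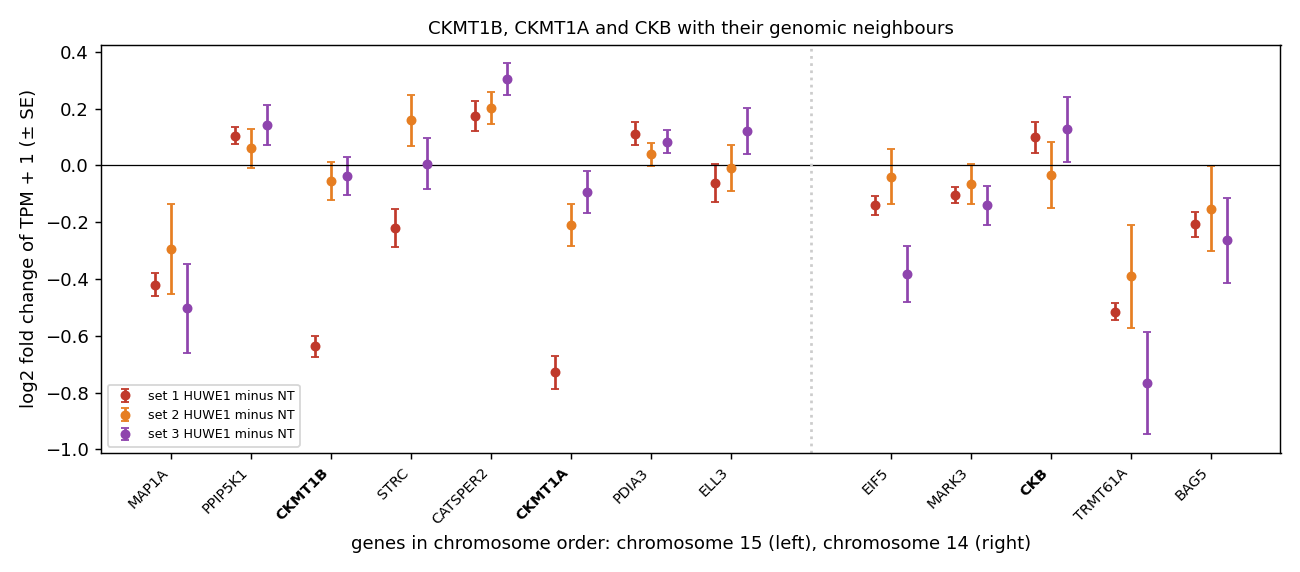
Log2 fold change of TPM + 1 (points) with its standard error (bars), HUWE1 siRNA minus non-targeting in sets 1, 2 and 3, for CKMT1B, CKMT1A and CKB (bold) and their protein-coding neighbours in chromosome order, with distances not to scale. AC011330.3, a neighbour of both CKMT1 copies, is not drawn (-0.17 in set 1, not called). In set 1 the CKMT1 copies lie at -0.64 and -0.73. Their called neighbours lie at -0.42 (MAP1A), -0.22 (STRC), 0.10 (PPIP5K1) and 0.17 (CATSPER2). PDIA3 at 0.11 and ELL3 at -0.06 were not called.

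Genes with patterns most like each member were ranked over 10882 genes by the lower of the Pearson r of log2(TPM + 1) in the 8 libraries of the first table and in the 12 of the second, as a description of libraries that share groups and a scale. For CKMT1A the first was GRK6, a G protein-coupled receptor kinase gene, with r of 0.99 and 0.89, and for CKMT1B the first was ZNF324, a zinc finger gene, with r of 0.95 and 0.80. CKMT1A and CKMT1B themselves had an r of 0.97 in the first table, which holds the set 1 difference, and -0.10 in the second. The first for CKB were TRAP1, a mitochondrial chaperone gene, with r of 0.93 in both tables, and AHCY, which clears the S-adenosylhomocysteine that GAMT leaves, with r of 0.98 and 0.90. TRAP1 averaged 161.4 ± 7.72 TPM in HUWE1 siRNA cells of set 3, 151.2 ± 14.2 TPM in those of set 2 and 143.1 ± 28.6 TPM in non-targeting cells, the same order of spreads as CKB. For GAMT the first was SNRPC, a spliceosome gene, with r of 0.89 and 0.75, and for SLC6A8 it was HSPA2, a heat shock protein gene, with r of 0.91 and 0.92.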

How the data were processed

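Per the labels' protocols, RNA from HEK293T cells was taken up in Trizol and sequenced on a NovaSeq instrument from TruSeq stranded mRNA libraries. The authors deposited TPM values in 2 tables, set 1 in the first (8 libraries) and sets 2 and 3 in the second (12 libraries), on genome build hg38, per the submitters' processing notes. For the aligner, counter and annotation nothing is given in the sources used here. Each library summed to 1000000 TPM, so depth is unknown and no interval for counting error was made.

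Groups follow the labels. log2(TPM + 1) was fitted with limma 3.58.1 in R 4.3.3 (variance with a mean trend) for genes that reached 1 TPM in 4 libraries or more of their table, with Benjamini-Hochberg adjustment over all tested genes and a threshold of 0.05. Set 1 was fitted on 8 libraries, and sets 2 and 3 on 12 together. The tables were never tested together. Fold changes on this scale understate changes of low genes. The CKMT1 sum used an exact permutation test. The procedure was tested on simulated data. The members, the gene lists and the tests were chosen with earlier results of these data known. Named were HUWE1, the 6 members, up to 4 called genes per list and comparison with the smallest p and the most abundant of each list, the 2 nearest protein-coding neighbours on each side, and the 3 genes most like each member in pattern. Not all of these are printed. Coordinates come from GENCODE 29 and promoter windows from RefSeq.

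Other settings tried were scaling by median of ratios, quantile normalization, removal of mitochondrially encoded genes, a pseudocount of 0.1, leaving the filter off, requiring a mean of 5 TPM, a block for the replicate number, fitting only the 2 groups compared, both CKMT1 copies summed, leaving out each library and, chosen after seeing the data, leaving out 2 non-targeting libraries together.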

Additional observations from a re-analysis of the deposited data

Results flagged for a closer look

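GATM in HUWE1 siRNA cells of set 2 had a library apart from the rest: replicate 4 was at 0.674 TPM, and the other libraries were at 0.861 to 0.894 TPM. Its gap to the nearest library was 0.851 of the range of the group, more than Dixon's test allows at its 95% level for 4 samples. Of 35 groups of 4 examined, 1 had such a library, and chance gives it in about 1 group in 20.

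GAMT differed between sets in the direction of its mean difference, HUWE1 siRNA minus non-targeting: -9.22 TPM in set 1, with all 4 libraries below the control mean, and 2.68 TPM in set 2, with all 4 above the mean of its controls. In set 2 the groups overlapped, and replicate 4 was at 84.89 TPM beside a control mean of 84.87 TPM. The difference between the sets was not tested, since the tables were normalized separately.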

How the results depend on the processing

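CKMT1A, CKMT1B and GAMT kept a negative set 1 log2 fold change of TPM + 1 and stayed past the threshold under each alternative that fitted them, over ranges of -0.78 to -0.69, -0.66 to -0.62 and -0.20 to -0.16. Members called in set 1 numbered 3 under each alternative that kept the CKMT1 copies apart, or 3 to 4 with each library left out, the extra one being CKB without HUWE1 siRNA replicate 1. With the copies summed, the sum and GAMT were called. Members called numbered 0 in the other comparisons under every alternative. Of 393 fold changes of members under alternatives, 15 changed sign: 1 in set 1 (SLC6A8), 6 in set 2 (CKB, SLC6A8 and CKMT1B), 2 in set 3 (CKMT1B) and 6 in set 3 minus set 2, all of members that were not called in that comparison. In set 2, CKB ran from -0.13 to 0.08 over the settings. The sign changes of set 3 minus set 2 were GAMT at -0.0046 without mitochondrially encoded genes and at -0.011 to 0.037 with each library left out, and CKMT1B at -0.026 to 0.062 with each library left out. The CKMT1 sum of set 3 minus set 2 ran from 2.49 to 5.74 TPM with each library left out.

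Genes called in set 1 numbered 3640 to 4675 with each library left out, against 4863. In set 2, where 2 were called, median-of-ratios scaling, the replicate block and only the 2 groups compared each gave 1, dropping mitochondrially encoded genes gave 6, and leaving out each library gave 1 to 2. In set 3 the 1839 became 698 with no filter, 693 with the replicate block, 360 with only the 2 groups compared and 3245 without 2 non-targeting libraries. Leaving out each library gave 163 (HUWE1 siRNA set 3 replicate 3) to 5878 (non-targeting replicate 4), so the set 3 background is uncertain. For set 3 minus set 2 the 82 became 42 with no filter, 17 with the replicate block and 335 with only the 2 groups compared, and 20 (set 3 replicate 3) to 228 (non-targeting replicate 4) with each library left out. The cause was not tested. Of the set 3 calls 64.2% were higher, against 48.9% under median-of-ratios scaling, 52.4% under quantile normalization and 44.4% without mitochondrially encoded genes, and for set 3 minus set 2 59.8%, against 49.3% in the last of these.

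Replicate numbers did not pair the libraries: 0 of 4 same-numbered pairs in the first table and 3 of 12 in the second had a correlation over 0.1, and 1 and 2 pairs correlated best with their own number. With the replicate block, set 1 gave 4597 genes and the same 3 members. Unknown depth limits GATM most, at under 1 TPM.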
